A study of Mus musculus with 4 samples.

Results

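The 47 genes described here encode the machinery of DNA replication and of S phase. They were chosen by name, from knowledge of the pathway and with earlier results of these data known. The shares of members set beside those of all genes below are therefore a description, not a test of the set. All 47 were found by their symbols among the 23435 genes read from 4 RNA-seq libraries of primary mouse oligodendrocytes. The libraries came from oligodendrocyte precursor cells of a mixed strain background, kept for 1 day in T3, a thyroid hormone that starts their differentiation in culture. 2 were controls, labelled lncOL1+/+ and lncOL1+/- without saying which library has which genotype, and 2 were lncOL1-/- knockouts. lncOL1 is a long noncoding RNA. The study asked which genes differ on its loss. The labels do not say which part of the locus was deleted, or whether the libraries of a group came from separate animals or cultures, so the p-values measure the spread between these libraries, which may be technical. Levels are in FPKM, a read density that is scaled to transcript length and to library size.

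A cell copies its genome once per division, in S phase. Origins are marked in G1, when the origin recognition complex, Cdc6 and Cdt1 load the Mcm helicase. Cyclin E with its kinase and the E2F transcription factors then drive entry into S phase, Cdc45 and the GINS complex switch the helicase on, and polymerases, the Pcna clamp and the enzymes of nucleotide supply make the new strands. Oligodendrocyte precursors divide, and leave the cell cycle as they differentiate.

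lncOL1, listed as 9630013A20Rik, was at 28.9 and 34.0 FPKM in the controls against 5.54 and 5.06 in the knockouts. The 9 defining genes of the labelled cell type were present in every library, with a negative log2 fold change for 5 and a positive one for 4. Mog, the lowest, was at 21.5 and 23.0 FPKM in the controls against 27.1 and 23.7 in the knockouts, and Mbp, the only one called, at 2683 and 2655 against 1501 and 1520 (limma adjusted p = 0.00504). The 5 oligodendrocyte precursor markers were also present and summed to 535.8 and 533.7 FPKM in the controls against 582.8 and 580.2 in the knockouts. Gpr17 made most of this sum, at 398.4 and 389.8 in the controls against 435.5 and 437.2 in the knockouts. The log2 fold change was negative for Pdgfra and positive for the other 4. The 8 astrocyte markers summed to 782.3 and 738.3 in the controls against 730.7 and 695.8 in the knockouts, all 8 with a negative log2 fold change. The 12 microglia and macrophage markers summed to 12.2 and 13.5 FPKM in the controls and to 26.2 and 31.6 in the knockouts. None of these 12 was at 0 in every library. Of the 6 tested, 3 were called higher (limma adjusted p under 0.05), against 0.528% of all genes tested. The 9 fibroblast and vascular markers summed to 3.26 and 3.57 FPKM in the controls against 4.63 and 4.19 in the knockouts. Only Acta2 of these was tested, and it was called higher, at 1.15 and 1.72 against 3.07 and 3.32. The other 8 were all under 1 FPKM. Of these 8, 6 were lower in both knockouts than in both controls, against 20.7% of all genes tested (Col1a1, Col1a2, Col3a1, Dcn, Lum and Pdgfrb). Some lie near 0, as Lum was at 0.098 and 0.045 in the controls and at 0 in both knockouts. The 7 neuron markers summed to 119.7 and 127 FPKM in the controls against 135.7 and 135.4 in the knockouts. Map2 made most of this sum, at 89.1 and 97.0 in the controls against 106.1 and 104.6 in the knockouts. Of the 3 neuron markers tested, the log2 fold change was positive for 2 and negative for 1. By limma 0 of 3 tested neuron markers, 0 of 8 astrocyte markers and 0 of 5 precursor markers were called. The authors' deposited comparison calls 3 of the 8 astrocyte and 3 of the 9 oligodendrocyte markers lower, against 4.04% of its genes. It calls 4 of the 12 microglia markers and 1 fibroblast or vascular marker higher, against 1.74%, and 0 precursor or neuron markers. The part of other cell types in the results below was not tested.

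The replication genes had lower values in the knockouts as a group, by small amounts, and no single member passed the test over all genes. Of the 45 members with a mean of at least 1 FPKM, 41 had a negative log2 fold change, against 48.6% of all 11361 genes tested. Their median was -0.16 on the log2(FPKM + 1) scale, against 0.0046 for all genes tested, and the median knockout level was 86.3% of the control level, against 100.4% for all genes. With the call set at a limma adjusted p under 0.05, 0 members were called lower, where 0.783% of all genes were, and 0 were called higher, where 0.528% were. At an unadjusted p under 0.05, 16 members were lower and 0 were higher, against 6.58% and 7.13% of all genes. Both knockout libraries lay below both controls for 29 of the 45, against 20.7% of all genes, and above both for 2, against 22.6%. The authors' deposited table, from a Cuffdiff comparison of the pooled groups, calls 8 of the 47 lower and 0 higher, against 4.04% and 1.74% of the genes it tested.

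**Figure D1:**
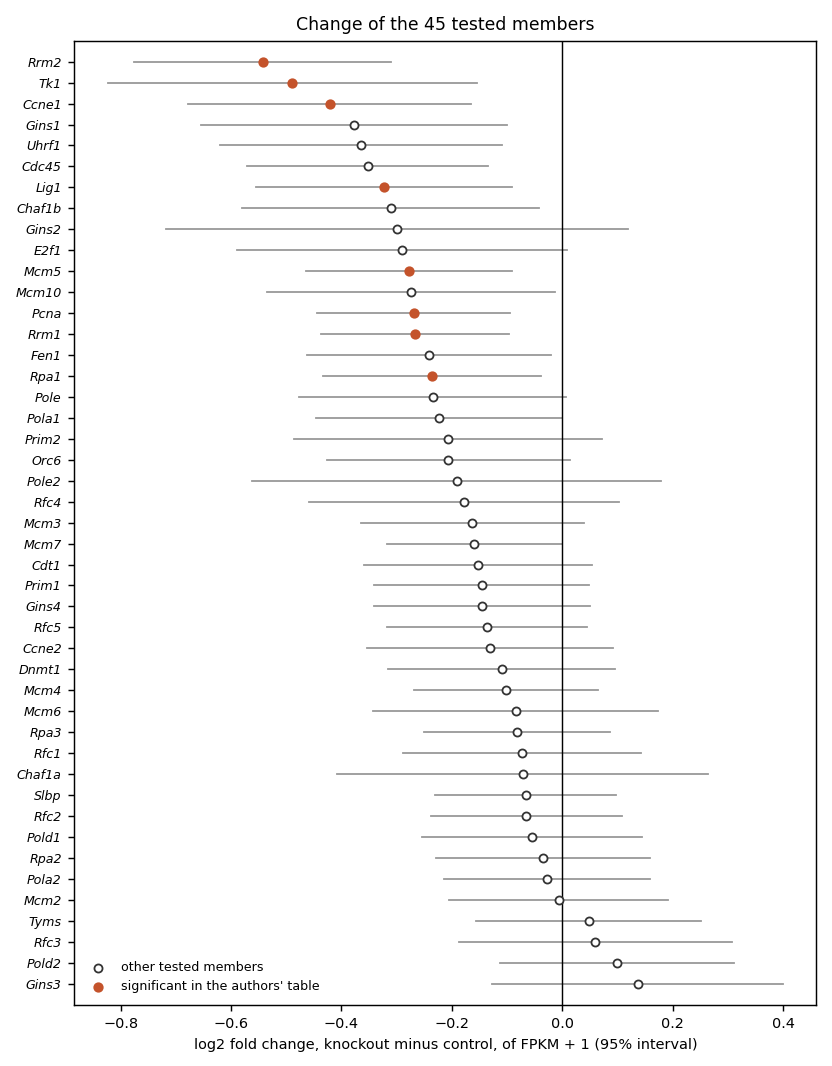
Log2 fold change of FPKM + 1, knockout minus control, for the 45 tested members, with the 95% interval from limma as a line. Filled points mark the 8 members called in the authors' deposited table, and 41 of the 45 points lie left of 0.

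The shift was seen between every pair of libraries from different groups. The median difference of log2(FPKM + 1) over the 45 members was -0.18 and -0.23 for knockout replicates 1 and 2 against control replicate 1, and -0.11 and -0.15 against control replicate 2. Within a group it was -0.04 between the controls and -0.02 between the knockouts. Over all genes tested, the same 6 medians lay between -0.02 and 0.02. Control replicate 1 was the library with the higher members, since 30 of the 45 were lower in control replicate 2. Without control replicate 1 the median log2 fold change of the members was -0.13, against -0.16 with all 4 libraries. It was -0.21 without control replicate 2, and -0.17 and -0.15 without knockout replicates 1 and 2. In RNA from a bulk culture, fewer cells in S phase and less of these RNAs per cell cannot be told apart.

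**Figure D2:**
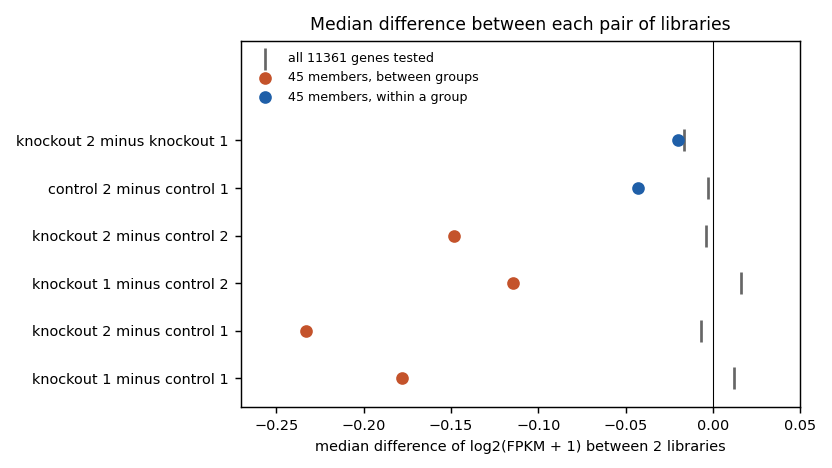
Median difference of log2(FPKM + 1) between each pair of libraries, for the 45 tested members (points) and for all 11361 genes tested (ticks). The 4 pairs that cross the groups lie between -0.23 and -0.11 and the 2 pairs within a group at -0.04 and -0.02.

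Levels spanned a wide range among the members. Pcna was the highest, with a mean of 62.4 FPKM over the 4 libraries, Orc1 the lowest with 0.558, and the median member had 5.52. 14 members reached 10 FPKM. 2 members, Orc1 and Cdc6, stayed under a mean of 1 FPKM and were not tested. Across the 45 tested members Pearson's r between fold change and level, both on the log2(FPKM + 1) scale, was 0.10. It is a description across genes that share the same 4 libraries. The +1 understates changes of low genes, so this r does not show how percent changes relate to level.

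**Figure D3:**
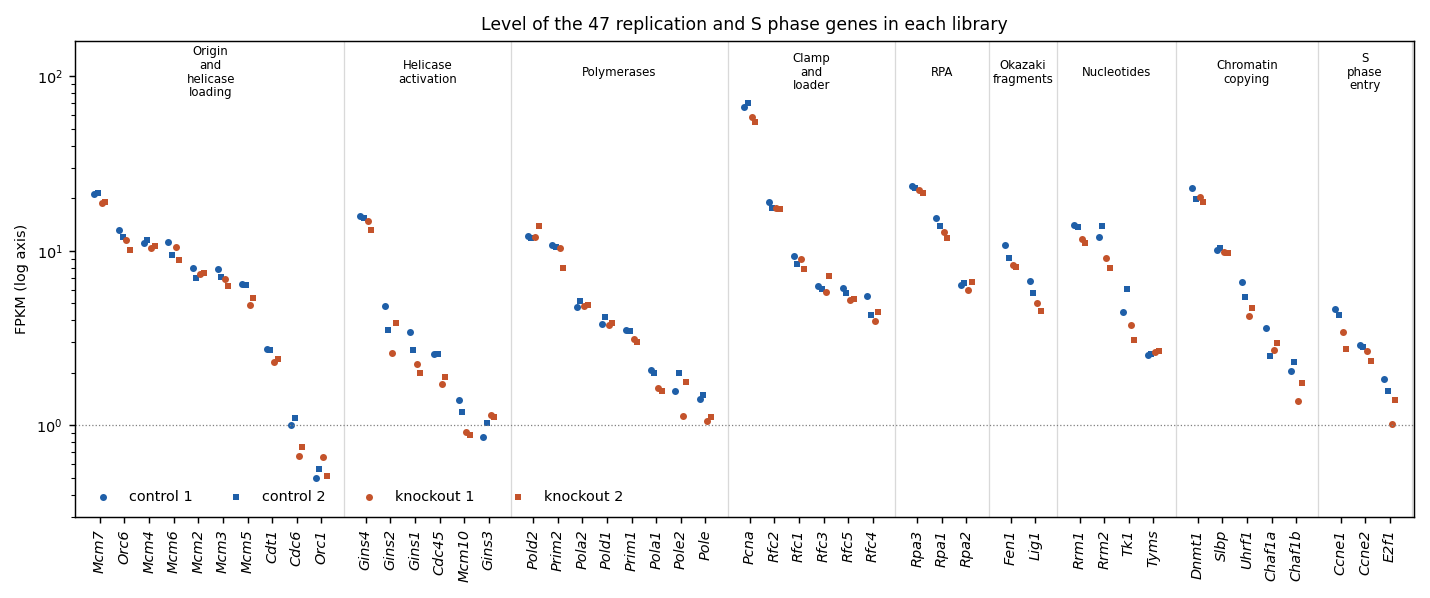
FPKM of each of the 47 members in each library on a log axis, grouped by role and ordered by mean level within a role. Blue points are the 2 controls, orange points the 2 knockouts, and the dotted line marks the minimum of 1 FPKM for testing. Pcna stands at the top, and Cdc6 and Orc1 lie at the bottom.

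A minority of the members with a promoter window held letters that E2F factors bind. Sequence was not used to choose members, but their role in S phase was, and E2F factors drive entry into S phase. The share of members with the letters is therefore not independent of the choice. E2F factors bind DNA around the letters TTTCGCGC or TTTGGCGC, and these were searched on both strands of the RefSeq windows that run from 250 bases before to 50 bases after an annotated start (build GRCm38.p6), for the 39 members with such a window, a gene being counted where any of its windows matched. The letters were present for 12 of the 39 (30.8%), against 0.929% of all 27025 genes with a window and 1.93% of the 8533 of them that were tested here. These 12 were Cdt1, Dnmt1, Lig1, Mcm3, Mcm5, Mcm6, Mcm7, Orc1, Pola1, Pole2, Rfc3 and Uhrf1. A variant, TTCCCGCC, was present for 7 of the 39 (17.9%), against 2.52% of all genes and 4.8% of those tested here. The shorter CCAAT box, which the factor NF-Y binds, was present for 25 (64.1%), against 41.1% and 43.7%. In these windows the variant overlapped none of the E2F matches, and 1 CCAAT box, in Mcm7, shared 1 base with one. Mcm4, Gins1, Gins2, Gins4, Pole, Prim2, Rfc2 and Ccne2 had no entry. The median log2 fold change was -0.16 for the 11 tested members with a match and -0.16 for the 26 without one.

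**Figure D4:**
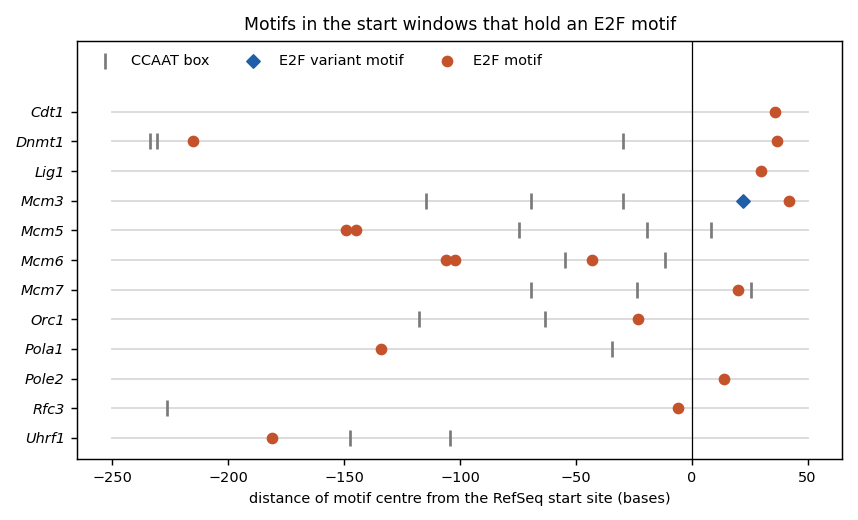
Position of E2F motifs (orange), the E2F variant (blue) and CCAAT boxes (grey) in the 12 RefSeq start windows of members that hold an E2F motif, as distance in bases from the start. Of the 16 E2F matches, 12 have their centre within 140 bases of the start, on either side.

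The 160 bases before the start are shown for the 5 members whose E2F letters fall inside that stretch, and for Rrm2, the member with the smallest p, which has none of them. Capitals mark E2F letters and CCAAT boxes on either strand, so that GCGCGAAA, GCGCCAAA and ATTGG are matches read on the other strand. The stretches are chr8:75109349-75109508 (plus strand) for Mcm5, chrX:93632156-93632315 (minus) for Pola1, chr1:128359706-128359865 (minus) for Mcm6, chr5:151651209-151651368 (minus) for Rfc3, chr4:108579294-108579453 (plus) for Orc1 and chr12:24708094-24708253 (plus) for Rrm2. In Mcm5 and Mcm6 a match on each strand overlaps, giving 12 capitals in a row, and Mcm6 has a further match nearer the start.
Mcm5: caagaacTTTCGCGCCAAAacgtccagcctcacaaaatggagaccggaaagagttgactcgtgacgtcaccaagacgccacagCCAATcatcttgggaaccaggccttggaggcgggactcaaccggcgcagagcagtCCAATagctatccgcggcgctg
Pola1: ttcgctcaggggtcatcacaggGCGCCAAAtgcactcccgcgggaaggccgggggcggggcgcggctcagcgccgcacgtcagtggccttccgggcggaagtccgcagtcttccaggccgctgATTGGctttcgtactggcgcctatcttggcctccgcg
Mcm6: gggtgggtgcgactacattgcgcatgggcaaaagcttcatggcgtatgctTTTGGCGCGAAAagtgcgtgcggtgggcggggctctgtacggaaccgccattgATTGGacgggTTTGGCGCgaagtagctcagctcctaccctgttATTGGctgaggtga
Rfc3: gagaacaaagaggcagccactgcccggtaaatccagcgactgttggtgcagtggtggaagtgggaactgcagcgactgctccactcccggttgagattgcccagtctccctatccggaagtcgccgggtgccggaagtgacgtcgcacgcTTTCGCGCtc
Orc1: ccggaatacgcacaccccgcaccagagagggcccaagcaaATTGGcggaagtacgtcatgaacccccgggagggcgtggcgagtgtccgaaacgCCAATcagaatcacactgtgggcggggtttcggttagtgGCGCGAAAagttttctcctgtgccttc
Rrm2: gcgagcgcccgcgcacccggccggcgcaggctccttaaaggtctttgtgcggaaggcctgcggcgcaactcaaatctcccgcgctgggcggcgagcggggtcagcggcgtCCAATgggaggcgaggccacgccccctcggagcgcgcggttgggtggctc
The knockout mean was below the control mean by 33.8% for Rrm2, 21.4% for Pola1 and 20.2% for Mcm5, with no overlap of the groups. For the other 3 it was below by 6.22% for Mcm6 and at 105.4% and 109.9% of control for Rfc3 and Orc1, with overlap in each.

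On the log2(FPKM + 1) scale the largest difference of any member was in the genes of nucleotide supply, though as a percent of the control mean Tk1, at 65.4%, was slightly below Rrm2, at 66.2%. Rrm2, the regulated subunit of ribonucleotide reductase, which makes deoxynucleotides (chromosome 12, 24708254 to 24714146, mm10), was at 12.0 and 13.9 FPKM in the controls against 9.09 and 8.01 in the knockouts. The groups do not overlap, and the log2 fold change was -0.54 (standard error 0.097, limma adjusted p = 0.0613, authors' deposited q = 2.2e-05). It passed the limma threshold under 4 alternative settings (adjusted p = 0.0212 to 0.0476) but not with any library left out (adjusted p = 0.167 to 0.351). Its partner subunit Rrm1 was at 14.04 and 13.7 in the controls against 11.7 and 11.03 in knockout, again without overlap (log2 fold change -0.27 with SE 0.071, limma adjusted p = 0.163, authors' deposited q = 0.0159). Tk1, thymidine kinase of the salvage route, was at 4.48 and 6.05 in the controls against 3.78 and 3.10 in knockout. Its controls differed from each other by 0.36 on the log2 scale, against a knockout change of -0.49 (SE 0.139, limma adjusted p = 0.187, authors' deposited q = 0.0451). Tyms, thymidylate synthase, went the other way within a narrow range, at 2.52 and 2.57 in the controls against 2.65 and 2.68 in knockout, with a 95% interval of the log2 fold change from -0.16 to 0.25. The authors' deposited table gives Tyms higher levels, 5.44 and 5.93 FPKM for the groups, and a processed pseudogene, Tyms-ps, is annotated in GENCODE, so its level is uncertain.

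Genes of S phase entry had lower values in both knockouts than in both controls for all 3 members, against 20.7% of all genes. Ccne1, cyclin E1, which activates Cdk2 (chromosome 7, 38097984 to 38107490), was at 4.62 and 4.28 FPKM in the controls against 3.43 and 2.73 in knockout, 69.2% of the control mean. Its log2 fold change was -0.42 (standard error 0.107, limma adjusted p = 0.145, authors' deposited q = 0.0489). Ccne2, the other E cyclin, was nearer the control level, at 2.87 and 2.81 against 2.68 and 2.34, and 17.4% of its exonic bases overlap Ints8 on the opposite strand. E2f1, the activating transcription factor, was at 1.83 and 1.57 in the controls against 1.02 and 1.403 in knockout (log2 fold change -0.29, limma adjusted p = 0.378).

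Origin licensing genes had a median log2 fold change of -0.16 over 8 tested members. Of the Mcm2 to Mcm7 subunits, which form 1 ring, Mcm7 was the highest at 21.3 and 21.4 FPKM in the controls against 18.8 and 19.1 in knockout, with very little spread within a group (log2 fold change -0.16 with SE 0.066, limma adjusted p = 0.363). Mcm5 had the lowest level and the largest difference of the ring, at 6.47 and 6.37 in the controls against 4.90 and 5.36 in knockout (log2 fold change -0.28 with SE 0.078, limma adjusted p = 0.183, authors' deposited q = 0.0461). Mcm3 and Mcm4 were below control without overlap at 87.9% and 92.5% of the control mean. Mcm6 and Mcm2 overlapped between groups, and for Mcm2, at 7.93 and 6.98 in the controls against 7.34 and 7.46 in knockout, the 95% interval of the log2 fold change ran from -0.20 to 0.19. Both knockouts lay below both controls for 4 of the 6 ring subunits, against 20.7% of all genes. Among the loaders, Orc6, a subunit of the origin recognition complex, was at 13.2 and 12.0 against 11.6 and 10.05 (limma adjusted p = 0.396), and Cdt1 was at 2.74 and 2.72 against 2.30 and 2.40 (limma adjusted p = 0.513). Both were lower in each knockout than in each control. Cdc6, too low for the test, was at 1.002 and 1.097 in the controls against 0.663 and 0.756 in knockout. Its knockout mean was 67.6% of the control mean, without overlap. Orc1 was at 0.5001 and 0.563 in the controls against 0.657 and 0.512 in knockout, with overlap of the groups. Gm12743 on the opposite strand covers 10.8% of the exonic bases of Orc1. The levels of the 2 origin recognition subunits thus differed by more than 10 FPKM in control.

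Helicase activation genes had a median log2 fold change of -0.29 over 6 tested members. Cdc45, the partner that joins the Mcm ring at firing (chromosome 16, 18780447 to 18811972), was at 2.57 and 2.58 FPKM in the controls and 1.72 and 1.88 in the knockouts, 69.9% of control (log2 fold change -0.35 with SE 0.091, limma adjusted p = 0.153). The controls were nearly equal. Mcm10, which helps to start unwinding, was at 1.404 and 1.196 against 0.916 and 0.884 (log2 fold change -0.27, limma adjusted p = 0.338), also without overlap. The 4 GINS subunits form 1 complex, and their levels spread widely. Gins4 was the highest at 15.8 and 15.4 in the controls against 14.9 and 13.1 in knockout. Gins1 was at 3.42 and 2.69 in the controls against 2.23 and 1.99 in knockout (log2 fold change -0.38 with SE 0.116, limma adjusted p = 0.218), with no overlap between groups. Gins2 ranged from 2.58 to 4.81 with overlapping groups, and 67.3% of its exonic bases overlap Gse1 on the opposite strand. Gins3 was the lowest and was higher in both knockouts, at 0.858 and 1.035 in the controls against 1.15 and 1.12 in knockout (log2 fold change 0.14, 95% interval -0.13 to 0.40).

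Of the 8 polymerase subunits, 4 were lower in both knockouts than in both controls, as were 20.7% of all genes, and 4 overlapped. Pold2, the accessory subunit of polymerase delta and the highest of them, was at 12.2 and 11.8 FPKM in the controls against 11.9 and 13.9 in knockout, with overlap. The catalytic subunit Pold1 was at 95.3% of the control mean, also with overlap. Pola1, the catalytic subunit of polymerase alpha, was at 2.09 and 1.99 in the controls against 1.63 and 1.58 in knockout (log2 fold change -0.22 with SE 0.093, limma adjusted p = 0.363), and Pole, the catalytic subunit of polymerase epsilon, was at 1.42 and 1.498 in the controls against 1.06 and 1.12 in knockout (log2 fold change -0.24, limma adjusted p = 0.377). Neither overlapped between groups. Their partners Pola2 and Pole2 overlapped, at 97.6% and 81.4% of the control mean. The primase subunits Prim1 and Prim2 were at 87.6% and 86.04% without overlap, though for Prim2 knockout replicate 1, at 10.4, was close to the controls at 10.8 and 10.5 and replicate 2 was at 7.96.

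Pcna had lower values in both knockouts, while most subunits of its loader overlapped between groups. Pcna, the ring that tethers polymerases to DNA (chromosome 2, 132249286 to 132253180), was at 66.5 and 69.97 FPKM in the controls against 58.4 and 54.6 in knockout, without overlap and with a log2 fold change of -0.27 (standard error 0.073, limma adjusted p = 0.170, authors' deposited q = 0.0079). 2 processed pseudogenes of Pcna are annotated in GENCODE, which makes its exact level uncertain. Replication factor C, which opens and loads that ring, had 1 subunit of 5 with both knockouts below both controls, against 20.7% of all genes. This was Rfc5, at 89.4% of the control mean. Rfc1, Rfc2, Rfc3 and Rfc4 overlapped, at 94.6%, 95.3%, 105.4% and 85.6%. Rfc2 was the highest of these, at 17.3 to 19.1 over the 4 libraries. Genes on the opposite strand overlap 15.1% of the exonic bases of Rfc2 (Lat2), 12.7% of Rfc4 (Eif4a2) and 10.7% of Rfc5 (Wsb2). A difference between clamp and loader was not tested.

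At the single strand and on the lagging strand, values were lower in both knockouts than in both controls for 4 of 5 genes, against 20.7% of all genes. Rpa1, the large subunit of the single-strand binding protein, was at 15.5 and 13.9 FPKM in the controls against 12.8 and 11.9 in knockout (log2 fold change -0.24 with SE 0.082, limma adjusted p = 0.274, authors' deposited q = 0.04). Rpa3, the small subunit, was the highest of the 3, at 23.6 and 22.8 against 22.5 and 21.3, and Rpa2 overlapped at 97.3% of control. Lig1, the ligase that seals Okazaki fragments (chromosome 7, 13277313 to 13311427), was at 6.75 and 5.75 in the controls against 5.03 and 4.54 in knockout. Its log2 fold change was -0.32 (standard error 0.097, limma adjusted p = 0.208, authors' deposited q = 0.00677). Fen1, the flap nuclease, was at 10.8 and 9.09 in the controls against 8.33 and 8.10 in knockout (log2 fold change -0.24, limma adjusted p = 0.315). An antisense gene, Gm10143, covers 78.8% of its exonic bases, and as the labels do not say whether counting used strand, reads of this pair cannot be told apart.

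The 5 genes that copy chromatin all had a negative log2 fold change, with a median of -0.11 and none called. Uhrf1, which brings the methyltransferase Dnmt1 to newly copied DNA (chromosome 17, 56303337 to 56323486), was at 6.67 and 5.44 FPKM in the controls against 4.22 and 4.70 in knockout, 73.7% of control (log2 fold change -0.36 with SE 0.107, limma adjusted p = 0.198). Dnmt1 itself, the highest of these genes, was at 22.8 and 19.95 against 20.3 and 19.1, with overlap. Chaf1b, a subunit of the histone chaperone CAF-1, was at 2.05 and 2.30 in the controls against 1.38 and 1.75 in knockout (log2 fold change -0.31, limma adjusted p = 0.291). The large subunit Chaf1a overlapped at 2.51 to 3.62, and 52.5% of its exonic bases lie over Ubxn6. Slbp, which binds histone mRNA, was at 95.05% of control with both knockouts just below both controls.

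Other genes of the pathway had smaller differences at the median, and genes of mitosis larger ones, a comparison that was not tested. Among 44 tested replication and S phase genes outside the 47, none was called by limma, 7 were lower and 1 was higher at an unadjusted p under 0.05, and the median log2 fold change was -0.10. Both knockouts were below both controls for 17 of these. The same shares of all genes were 0.783% and 0.528% called lower and higher, 6.58% and 7.13% lower and higher at an unadjusted p under 0.05, and 20.7% below both controls. Rb1, the retinoblastoma protein that restrains E2F factors, had the smallest p, at 12.9 and 13.99 FPKM in the controls against 11.02 and 10.6 in knockout (log2 fold change -0.29, limma adjusted p = 0.158). Clspn, a checkpoint mediator at forks, was at 1.73 and 1.63 against 1.23 and 1.16, and Topbp1, which helps to load Cdc45, at 13.8 and 14.3 against 12.3 and 11.98, both without overlap and with limma adjusted p = 0.263 and 0.277. Of 30 mitosis genes, all tested, 2 were called lower, Top2a and Kif11, and 18 were lower at an unadjusted p under 0.05, with a median of -0.28. Mki67, the proliferation marker next in order of p, was at 6.04 and 5.43 in the controls against 3.93 and 3.16 in the knockouts (limma adjusted p = 0.0682). The authors' deposited table calls 9 of the 30 mitosis genes and 1 of 50 other replication genes lower, against 4.04% of the genes it tested. The median knockout level was 77.0% of control for mitosis genes, 86.3% for the 45 members and 91.9% for the other replication genes.

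**Figure D5:**
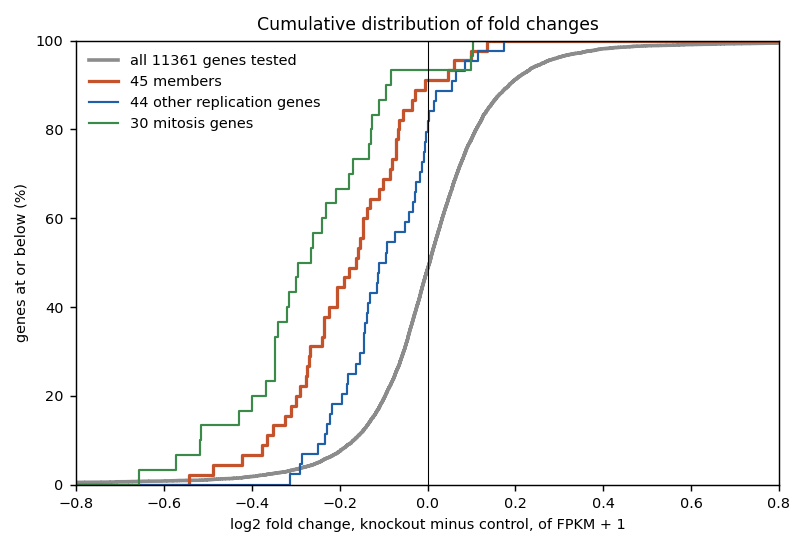
Cumulative share of genes by log2 fold change of FPKM + 1 (knockout minus control), for all 11361 genes tested, the 45 tested members, 44 other replication genes and 30 mitosis genes. The medians are 0.0046, -0.16, -0.10 and -0.28.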

How the data were processed

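The members, gene lists and tests were chosen with earlier results of these data known. Libraries were made with an Illumina TruSeq RNA kit from Trizol-extracted total RNA, per the labels' protocols. CASAVA, TopHat, Cufflinks and Cuffdiff and the build mm10 are named, without versions or roles, per the submitters' processing notes. The authors deposited gene-level FPKM for each library. They also deposited a comparison of the groups, with a pooled FPKM per group, a log2 fold change (handled as a score, since codes stand for infinity), and p-value and q-value columns, per the file headers. Those are quoted as the authors'.

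No count model suits FPKM, and the reads behind a value are unknown. Ratios among 561 low rows gave knockout replicates 1 and 2 a depth of 0.94 and 1.14 relative to control replicate 1, and no clear value for control replicate 2. Summed FPKM was 373484 to 383128. Rows of a symbol were summed, and 9 symbols with a failed status in any library were left out. For the 11361 genes whose mean reached 1 FPKM, log2(FPKM + 1) entered a limma fit (version 3.58.1, R 4.3.3, eBayes with trend, 2 residual degrees of freedom), knockout minus control, with Benjamini-Hochberg adjustment over all genes. The +1 understates changes of low genes. The fit was tested on simulated data. Values are given per library for members with an unadjusted p under 0.05, for the highest of each role and for others named after their values were seen. Promoter sequences are from RefSeq (GRCm38.p6).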

Additional observations from a re-analysis of the deposited data

How the results depend on the processing

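The counts of calls, the median fold change of the members and the fold change of each tested member were recomputed under 9 other settings and with each library left out, except that a member under the stricter minimum has no value there. The other gene lists, the counts of groups that do not overlap, the library pairs and the motif matches were not recomputed. Outside the left-out libraries, no tested member changed sign, and 4 of 392 member values changed their call, all for Rrm2. The count of members called lower went from 0 to 1 with a pseudocount of 0.1, with a minimum of 3 FPKM, with TPM scaling and with the replicate block, and 0 were called higher under any setting. Over all genes tested, 89 were called lower and 60 higher, against 3 and 1 with no filter on low values and 183 and 158 with the replicate block. Same-numbered libraries share only a number (r = -0.05 between their replicate differences over 11361 genes), so the block is no evidence of pairing. With a library left out, 5 to 26 genes were called lower and 11 to 16 higher, no member was called, and the lone library was assumed to vary like the other group. The median log2 fold change of the members was then -0.2125 to -0.1316, against -0.16 with all 4 libraries. Of 180 such member values 11 changed sign, for 9 members that overlap between groups: Mcm2 (-0.0876 to 0.0738), Mcm6 (-0.1929 to 0.0241), Pola2 (-0.0727 to 0.0167), Pole2 (-0.3838 to 9e-04), Pold2 (-0.0052 to 0.2018), Rfc1 (-0.1567 to 0.0113), Rfc3 (-0.0738 to 0.1936), Rpa2 (-0.1033 to 0.0322) and Chaf1a (-0.2711 to 0.1268). The cause of these changes was not tested beyond the fewer samples or genes that each setting leaves.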
